A study of Rattus norvegicus with 24 samples.

Results

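The reference miRNAs rno-miR-378a-3p, rno-miR-330-5p, rno-let-7b-3p and rno-miR-3594-3p were examined in small RNA sequencing counts from rat brain. They are the miRNAs that the study used to scale its PCR measurements, and they were taken as given by name, 4 of the 728 miRNAs listed in the count tables. The 12 animals were adult male Sprague-Dawley rats, 6 with traumatic brain injury (TBI) by lateral fluid percussion, in which a fluid pulse strikes the dura on one side, and 6 sham-operated controls that had the anesthesia and surgery without the impact. Each rat gave 1 library from the perilesional cortex and 1 from the ipsilateral thalamus at 3 months after the operation, so there were 4 groups of 6 and 24 libraries. The TBI rats had been selected for chronic inflammation around the lesion on imaging, so they stand for that kind of outcome and not for all injured rats.

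A miRNA is cut from a hairpin precursor as a short RNA, and either arm of the hairpin (5p or 3p) can be loaded into an Argonaute protein, where the seed, bases 2 to 8, pairs with target mRNAs. Measurements of a miRNA by PCR are expressed relative to reference RNAs that should vary little between animals and not with the condition under study, because every change of the reference passes into each target. The study divided droplet digital PCR copies of its target miRNAs by the geometric mean of the 4 references in both regions, and used miR-378a-3p alone in a further PCR assay of miR-146a. Its methods describe the PCR of tRNA fragments, reported for both regions, as done like that assay. The study chose the 4 from its own small RNA sequencing, so a small injury effect on them in these libraries is not independent evidence.

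The mature sequences are shown because let-7b-3p has close relatives that a counting step or a PCR assay must tell apart. All 4 matched RefSeq entries (assembly GRCr8), and capitals mark the seed.
rno-let-7b-3p: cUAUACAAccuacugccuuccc
rno-miR-330-5p: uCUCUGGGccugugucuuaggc
rno-miR-378a-3p: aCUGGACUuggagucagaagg
rno-miR-3594-3p: cACACCGCcucugcccgcuagu
In RefSeq, let-7b-3p lies on chromosome 7 (plus strand), with no other gene annotated over it. miR-330-5p lies on chromosome 1 (plus strand) within the span of Eml2. miR-378a-3p lies on chromosome 18 (minus strand) within Ppargc1b, which encodes a coactivator of mitochondrial genes. miR-3594-3p lies on chromosome 10 (minus strand) within Cep131, which encodes a centrosomal protein. The 4 seeds were all different. In the RefSeq table of 693 mature rat miRNAs, let-7b-3p shared its seed with 5 others and miR-330-5p with 1, whereas miR-378a-3p and miR-3594-3p shared theirs with none.

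The closest relatives of let-7b-3p, and the miRNA with the seed of miR-330-5p, are shown to set their letters beside the references.
let-7a-1-3p: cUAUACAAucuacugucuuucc
let-7c-2-3p: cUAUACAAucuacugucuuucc
let-7f-1-3p: cUAUACAAucuauugccuucc
miR-326-3p: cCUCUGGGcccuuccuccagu
Each of the 3 let-7 arms was 3 single-base edits away from let-7b-3p, and together they held 16604 reads over the 24 libraries against 5542 for let-7b-3p. The first 2 are identical to each other in RefSeq although the count tables list them apart, so how reads of near copies were divided bears on let-7b-3p. miR-326-3p shared only the seed with miR-330-5p, at an edit distance of 9, and held 11616 reads against 40693. The tables also listed miR-378b, with 7359 reads against 126467 for miR-378a-3p.

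The libraries held 744564 to 4069284 miRNA reads in cortex and 523298 to 4139901 in thalamus. Levels below are CPM, reads per 1000000 miRNA reads after scaling with trimmed mean of M-values (TMM) factors over the 24 libraries, and 1 read was worth 0.342 to 1.56 CPM in cortex and 0.206 to 2.24 CPM in thalamus. The libraries under 1000000 reads were 5, namely sham rats 50 and 55 and TBI rat 56 in cortex and sham rat 55 and TBI rat 56 in thalamus. The tissue label was checked against 4 neuronal miRNAs, miR-138-5p, miR-9a-5p, miR-124-3p and miR-128-3p. All were present in every group, and they summed to between 123193 and 608348 CPM per library. The median sum was 446715 CPM in sham and 305282 CPM in TBI cortex, and 195733 and 183030 CPM in thalamus. Of the 4, miR-124-3p was not lower in TBI cortex, at a mean of 8253 CPM against 7706 CPM in sham. Summed oligodendrocyte markers (4 of 4 listed, none at 0) ran from 4694 to 6486 CPM in cortex and from 12757 to 21100 CPM in thalamus. The leukocyte and microglia markers, 4 of 4 listed, had a median sum of 1538 CPM in TBI cortex against 1037 CPM in sham cortex, and of 1398 CPM against 995 CPM in thalamus. The miRNA counts are shares of each library, so fewer cells of a type and less RNA per cell cannot be told apart.

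The 4 references spanned a wide range of abundance. miR-378a-3p, known from work on energy metabolism and processed mainly from the 3p arm, was the most abundant, at 2838 ± 832 CPM (SD, n = 24 libraries), and miR-330-5p followed at 809 ± 215 CPM. let-7b-3p, the minor arm of a let-7 hairpin whose 5p arm is a main brain miRNA, was at 128 ± 50.9 CPM. miR-3594-3p was at 7.36 ± 2.61 CPM and rested on 2 to 27 reads per library. By mean reads they ranked 49, 103, 211 and 359 among the 371 miRNAs tested in cortex, in the order miR-378a-3p, miR-330-5p, let-7b-3p and miR-3594-3p. Each step in that order was larger than the range over libraries, since the lowest value of one reference lay above the highest value of the next. Reads of different miRNAs are not copy numbers, because ligation and amplification differ between sequences.

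**Figure D1:**
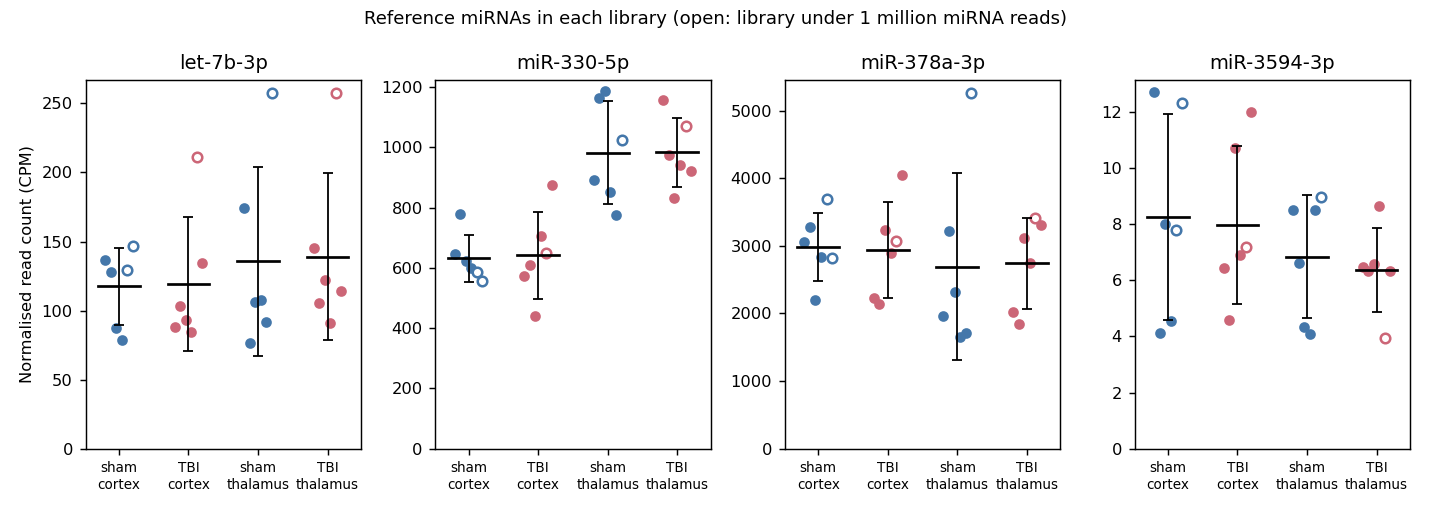
Normalised read count (CPM, linear axes from 0) of each reference miRNA in the 24 libraries, by group of 6 rats, with the mean (line) and SD (bars), and open circles for the 5 libraries under 1000000 miRNA reads. TBI and sham overlap in every panel, and only miR-330-5p has most thalamus libraries above the cortex libraries.

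The first comparison asked whether injury changed the references in the perilesional cortex. let-7b-3p ran from 78.5 CPM (sham rat 38) through a median of 129 CPM to 147 CPM (rat 55) in sham, and from 84.6 CPM (rat 52) through 98.2 CPM to 211 CPM (rat 56) in TBI. The means were nearly equal, at 118 and 119 CPM, although the TBI median was the lower. miR-330-5p ran from 556 through 611 to 778 CPM in sham and from 441 through 629 to 874 CPM in TBI. Both its lowest and its highest cortical value were in TBI rats, 45 and 63. miR-378a-3p ran from 2204 through 2951 to 3698 CPM in sham and from 2141 through 2988 to 4048 CPM in TBI. miR-3594-3p ran from 4.11 through 7.90 to 12.7 CPM in sham and from 4.58 through 7.04 to 12.0 CPM in TBI, on 5 to 19 and 5 to 16 reads. In all 4 the groups overlapped, whereas 2.7% of the miRNAs tested had no overlap between TBI and sham.

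None of the 4 references passed an adjusted p of 0.05 in cortex, where 5.66% of the 371 miRNAs tested did (21 of 371, edgeR's quasi-likelihood test). Without adjustment, 81 of all miRNAs had a p under 0.05 and none of the 4 did. The log2 difference, TBI minus sham, was 0.05 for let-7b-3p (SE 0.26, 95% interval -0.50 to 0.60, adjusted p = 0.933). It was 0.07 for miR-330-5p (SE 0.17, -0.29 to 0.44, adjusted p = 0.858) and 0.03 for miR-378a-3p (SE 0.19, -0.37 to 0.43, adjusted p = 0.950). It was 0.04 for miR-3594-3p (SE 0.36, -0.72 to 0.80, adjusted p = 0.978). The intervals set what the 12 libraries could show. For miR-330-5p they reached from 0.818-fold to 1.35-fold, and for miR-3594-3p from 0.605-fold to 1.74-fold.

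In the thalamus TBI and sham overlapped as well. let-7b-3p ran from 76.6 CPM through a median of 107 to 257 CPM in sham and from 90.9 through 118 to 258 CPM in TBI. The highest value of either group came from the library under 1000000 reads, rat 55 in sham and rat 56 in TBI. miR-330-5p ran from 776 through 958 to 1186 CPM in sham and from 831 through 958 to 1157 CPM in TBI, so that the medians met. miR-378a-3p ran from 1658 through 2146 to 5258 CPM in sham and from 1842 through 2932 to 3412 CPM in TBI. Its highest value was again that of sham rat 55. miR-3594-3p ran from 4.10 through 7.56 to 8.95 CPM in sham and from 3.93 through 6.40 to 8.63 CPM in TBI. Of all miRNAs tested in thalamus, 1.28% of the miRNAs tested had no overlap between the groups.

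None of the 4 passed in thalamus either, where 0.513% of the 390 miRNAs tested did (2 of 390). The log2 differences, TBI minus sham, were 0.04 for let-7b-3p (SE 0.34, 95% interval -0.68 to 0.76), 0.01 for miR-330-5p (SE 0.16, -0.34 to 0.36), 0.02 for miR-378a-3p (SE 0.29, -0.60 to 0.64) and 0.01 for miR-3594-3p (SE 0.26, -0.55 to 0.57). The adjusted p values in edgeR lay between 0.986 and 0.996. Without the libraries of rats 55 and 56, an alternative added after the data were seen, the log2 difference of miR-378a-3p became 0.27 (adjusted p = 0.699) and that of let-7b-3p 0.07. The interval for miR-378a-3p, which the study used alone in thalamus for miR-146a and, by its methods, for tRNA fragments, ran from 0.659-fold to 1.56-fold with all libraries.

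The median absolute log2 difference of the 4 was 0.044 in cortex and 0.015 in thalamus, beside 0.26 and 0.22 over all miRNAs tested. Since the study picked the 4 from these libraries, these medians describe the choice and support nothing. The injury effect did not differ detectably between the regions for any of the 4. The log2 interaction, cortex effect minus thalamus effect, ran from -0.05 (miR-378a-3p, SE 0.34) to 0.02 (miR-330-5p, SE 0.22), and 0% of the 407 miRNAs tested passed in edgeR (0 of 407, with 16 at an unadjusted p under 0.05). DESeq2 also called none of the 407.

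**Figure D2:**
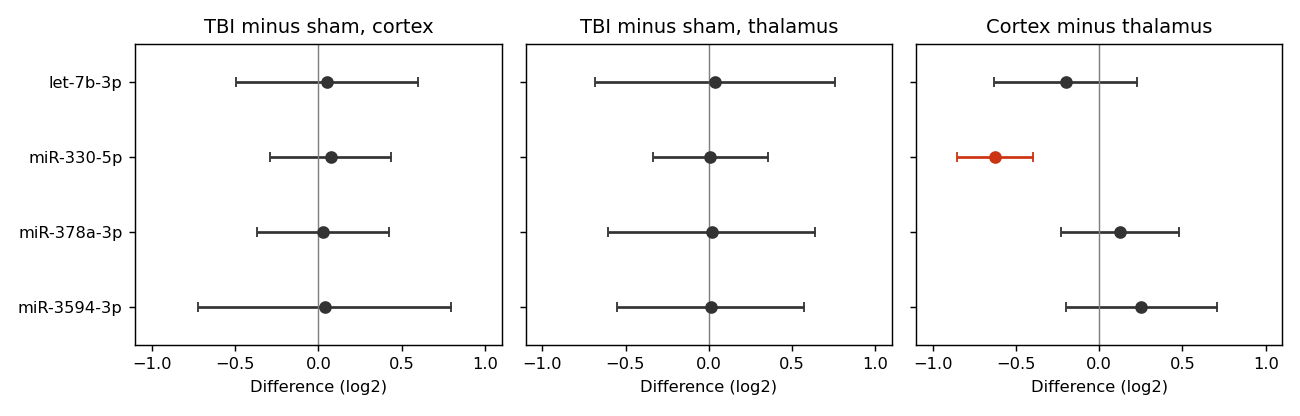
Log2 difference and 95% interval (bars) of each reference miRNA for TBI minus sham in cortex, TBI minus sham in thalamus and cortex minus thalamus, with an adjusted p under 0.05 in red. The 8 injury intervals all span 0, and of the 3 panels only the regional one holds an interval clear of 0, that of miR-330-5p.

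The second comparison asked whether the references were at the same level in both regions, since the study used the same 4 in each. The study compared TBI with sham within each region, and its methods state no test between regions. A regional offset shared by TBI and sham rats does not enter those comparisons. miR-330-5p was higher in thalamus. Over the 12 rats it ran from 441 through a median of 617 to 874 CPM in cortex and from 776 through 958 to 1186 CPM in thalamus. The highest cortex library, TBI rat 63 at 874 CPM, lay above the 3 lowest thalamus libraries, sham rat 50 at 776 CPM, TBI rat 45 at 831 CPM and sham rat 38 at 852 CPM, and the next, sham rat 32 at 778 CPM, lay above the first of these. The other 10 cortex libraries lay below every thalamus library. Of all miRNAs tested, 5.9% had no overlap between regions. The log2 difference, cortex minus thalamus, was -0.63 (SE 0.11, 95% interval -0.85 to -0.40, adjusted p = 4.47e-05 in edgeR), which is 1.54-fold more in thalamus (1.32-fold to 1.80-fold). It was -0.64 (SE 0.15) in sham and -0.61 (SE 0.15) in TBI rats.

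Within rats the direction was uniform, with miR-330-5p higher in the thalamus of 12 of 12 animals. The within-rat log2 difference, cortex minus thalamus, ran from -1.01 (TBI rat 22) through a median of -0.63 to -0.08 (TBI rat 63). Of all miRNAs tested, 19.9% had 1 direction in 12 of 12 rats and 9.34% were higher in thalamus in all of them, and 20.6% passed the test with a lower level in cortex (84 of 407), so miR-330-5p was 1 of many. With the rat as a block its log2 difference was -0.63 (adjusted p = 5.08e-05 in edgeR). It passed in all 9 other settings and in all 12 fits that left out a rat, at log2 values of -0.92 to -0.54 and -0.78 to -0.58. Oligodendrocyte and neuronal marker sums differed between regions as given above, and their part in the miR-330-5p difference was not tested.

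The other 3 did not pass between regions, where 40.3% of the 407 miRNAs did (164 of 407). let-7b-3p ran from 78.5 through 116 to 211 CPM in cortex and from 76.6 through 111 to 258 CPM in thalamus. Its log2 difference, cortex minus thalamus, was -0.20 (SE 0.21, 95% interval -0.63 to 0.23, adjusted p = 0.455 in edgeR), and it was higher in thalamus in 9 of 12 rats. With scaling by library size only it became -0.46 (adjusted p = 0.0382 in edgeR). That setting moved the median log2 difference of all miRNAs from 0.00 to -0.32 and the calls from 80 higher and 84 lower in cortex to 40 and 163. miR-378a-3p had medians of 2981 CPM in cortex and 2535 CPM in thalamus and a log2 difference of 0.13 (SE 0.17, -0.23 to 0.48, adjusted p = 0.584). It was higher in cortex in 9 of 12 rats, with within-rat values from -0.90 (sham rat 55) to 1.11 (sham rat 50). miR-3594-3p had medians of 7.48 CPM and 6.52 CPM and a log2 difference of 0.25 (SE 0.22, -0.20 to 0.71, adjusted p = 0.368), and it was higher in cortex in 7 of 12 rats.

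**Figure D3:**
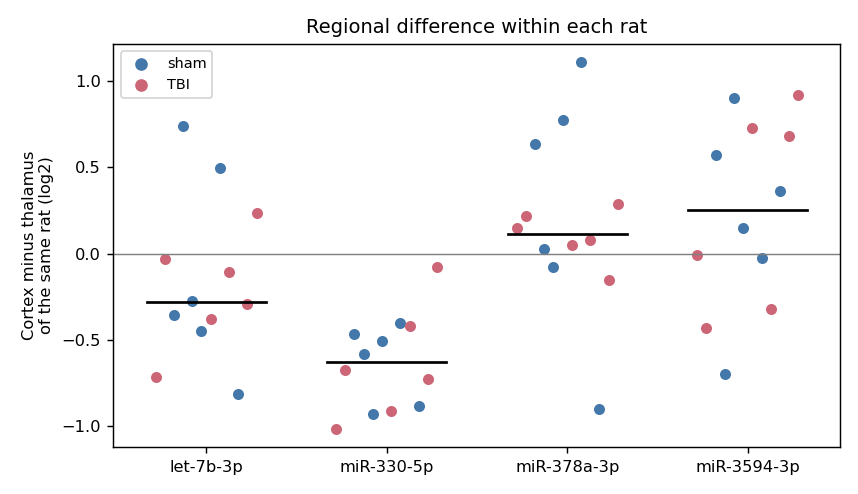
Log2 difference between the cortex and the thalamus library of the same rat for each reference miRNA, 1 point a rat (12 rats, coloured by group), with the median as a line. All 12 points of miR-330-5p lie below 0, from -1.01 to -0.08, and those of the other 3 lie on both sides.

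The second arm of each hairpin gave a further reading of the same precursor. miR-330-3p was also higher in the thalamus in 12 of 12 rats, at a median of 802 CPM in cortex and 1172 CPM in thalamus (log2 difference -0.74, SE 0.20, adjusted p = 0.00464 in edgeR). miR-378a-5p, the minor arm, was higher in cortex, at a median of 55.4 CPM against 34.4 CPM (log2 difference 0.62, SE 0.17, adjusted p = 0.00464 in edgeR, 10 of 12 rats), unlike miR-378a-3p, and 19.7% of the miRNAs tested passed in that direction. The difference between those arms was not itself tested. let-7b-5p was at a median of 8508 CPM in cortex and 7184 CPM in thalamus (log2 difference 0.33, SE 0.16, adjusted p = 0.104). miR-3594-5p, at most 8.95 CPM, fell under the expression filter. Of the 3 arms tested, none passed for injury in either region, with log2 differences of 0.26 to 0.56.

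As a share of the reads of both arms, let-7b-3p took 1.54% ± 0.470 (SD, n = 6) in sham cortex, 1.17% ± 0.345 in TBI cortex, 2.36% ± 1.30 in sham thalamus and 1.74% ± 0.979 in TBI thalamus. miR-330-5p took between 40.1% and 45.7% on average in the 4 groups, so neither arm of that hairpin dominated. miR-378a-3p took between 98.0% and 98.7%, and miR-3594-3p between 68.0% and 85.3% on few reads. For let-7b the study's reference was thus the minor arm, and for miR-378a the major one.

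The spread between rats is the other property asked of a reference. It is given as the SD of log2 CPM within TBI and sham groups, pooled. In cortex it was 0.29 for miR-330-5p, 0.35 for miR-378a-3p, 0.48 for let-7b-3p and 0.63 for miR-3594-3p, beside a median of 0.35 over all 371 miRNAs tested. In thalamus it was 0.21 for miR-330-5p, 0.43 for miR-3594-3p, 0.52 for miR-378a-3p and 0.61 for let-7b-3p, beside a median of 0.48 over 390. miR-330-5p thus had the smallest spread of the 4 in both regions, and in thalamus only 3.59% of the miRNAs tested had a smaller one. In cortex 36.4% had a smaller spread than miR-330-5p, 49.6% than miR-378a-3p, 70.9% than let-7b-3p and 86.3% than miR-3594-3p.

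Low counts set much of the spread of miR-3594-3p. Counting error alone gives an SD of 0.44 in cortex and 0.46 in thalamus at its read numbers, which is 48.0% of its variance in cortex and 115% in thalamus, so that in thalamus its spread was no larger than counting error. For the other 3 the share was 0.177% to 5.56%. Counting error here covers reads only, since copies made by PCR are not independent molecules.

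The libraries under 1000000 reads were among the highest for let-7b-3p in both regions and were the highest for miR-378a-3p in thalamus. let-7b-3p was at 257 and 258 CPM in the 2 such thalamus libraries and at 76.6 to 174 CPM in the 10 others, and at 129 to 211 CPM in the 3 such cortex libraries against 78.5 to 136 CPM in the 9 others. miR-378a-3p was at 3412 and 5258 CPM in those 2 thalamus libraries and at 1658 to 3310 CPM in the 10 others, but in cortex the 3 such libraries, at 2823 to 3698 CPM, lay within the range of the 9 others, 2141 to 4048 CPM. Without them the spread in thalamus was 0.37 for let-7b-3p and 0.35 for miR-378a-3p, and that of miR-330-5p was 0.22. The part of depth in these values was not tested.

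**Figure D4:**
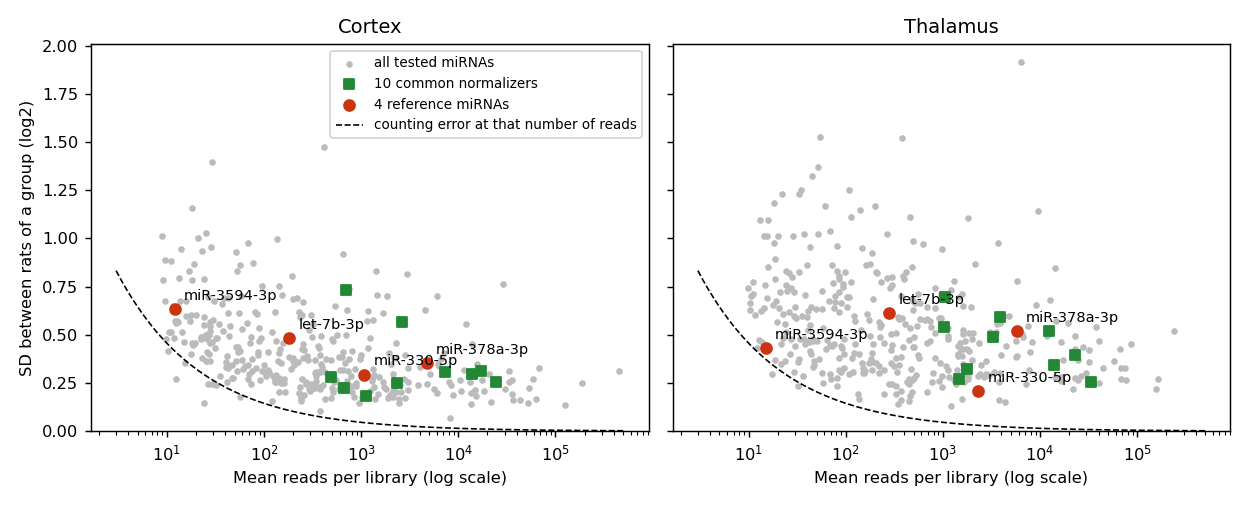
SD of log2 CPM between rats within groups against mean reads per library (log axis), in cortex and thalamus, with TMM factors of each region. All miRNAs tested are grey, the 10 common normalizers green squares and the 4 references red. The dashed line is the SD that counting error alone gives. miR-3594-3p lies near the dashed line in thalamus, at 0.43, and above it in cortex, at 0.63, and miR-330-5p has the smallest spread of the 4 in both regions.

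A list of 10 miRNAs that are often used as normalizers was set beside the 4. They were miR-16-5p, miR-103-3p, miR-191a-5p, miR-423-3p, miR-423-5p, miR-25-3p, miR-93-5p, miR-186-5p, let-7a-5p and miR-124-3p. Their median spread was 0.29 in cortex and 0.44 in thalamus, beside 0.42 and 0.48 for the 4 references. Their median absolute injury difference was 0.29 in cortex and 0.23 in thalamus on the log2 scale, beside 0.044 and 0.015 for the 4, which the study had selected here. After injury 2 of the 10 rose in cortex, miR-25-3p (log2 difference 0.57, adjusted p = 0.0369 in edgeR) and miR-93-5p (0.66, adjusted p = 0.0369), which come from one cluster of related miRNAs, beside 5.66% of all miRNAs tested, and none passed in thalamus, beside 0.513%. Between regions 3 of the 10 passed, beside 40.3% of all miRNAs tested, and 10 are too few to tell these shares apart. miR-25-3p and miR-93-5p were higher in thalamus (log2 differences, cortex minus thalamus, -0.62 and -0.52), and the neuronal miR-124-3p was higher in cortex (0.55).

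The ratio of 2 references in a library needs no scaling and shows whether they kept step. Between regions the ratios moved most in the pairs with miR-330-5p. let-7b-3p to miR-330-5p was 1.39-fold higher in cortex, in the same direction in 12 of 12 rats. miR-330-5p to miR-378a-3p was 1.76-fold higher in thalamus, and miR-330-5p to miR-3594-3p 1.83-fold higher in thalamus, each in 11 of 12 rats. Pairs without miR-330-5p moved too. let-7b-3p to miR-378a-3p was 1.27-fold higher in thalamus (10 of 12 rats), and let-7b-3p to miR-3594-3p 1.32-fold (8 of 12 rats). The ratio of miR-378a-3p to miR-3594-3p differed by 1.04-fold and was higher in cortex in 7 of 12 rats. Between TBI and sham the mean log2 ratio of any pair moved by -0.04 to 0.04 in cortex and by -0.11 to 0.17 in thalamus. Within groups the SD of the log2 ratio ran from 0.33 (miR-330-5p to miR-378a-3p) to 0.69 (miR-330-5p to miR-3594-3p) in cortex and from 0.50 to 0.69 in thalamus.

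Likeness over the 24 libraries was measured as the SD of the log2 ratio to every other tested miRNA, where a small value means that the pair kept a nearly constant ratio. miR-330-5p was most like miR-340-3p (0.26) and miR-181a-1-3p (0.27), and let-7b-3p was most like miR-423-3p (0.30) and miR-125b-2-3p (0.33). miR-378a-3p was most like miR-195-3p (0.28) and miR-28-5p (0.29), and miR-3594-3p was most like let-7e-5p (0.41) and miR-181d-5p (0.43). The nearest of the other 3 references came at rank 40 for let-7b-3p, 114 for miR-330-5p, 74 for miR-378a-3p and 22 for miR-3594-3p.

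The geometric mean of the 4, the quantity by which the study divided, was computed here from CPM. In cortex it ran from 159 CPM through a median of 208 to 244 CPM in sham and from 160 through 192 to 277 CPM in TBI. In thalamus it ran from 160 through 201 to 344 CPM in sham and from 187 through 216 to 261 CPM in TBI. The groups overlapped in both regions. The 2 thalamus libraries under 1000000 reads were at 261 and 344 CPM and the 10 others at 160 to 228 CPM. On the log2 scale, TBI minus sham was -0.02 in cortex and 0.04 in thalamus. Between the lowest and the highest of 12 rats it varied 1.74-fold in cortex and 2.15-fold in thalamus, while miR-378a-3p alone varied 1.89-fold and 3.17-fold. Cortex minus thalamus was -0.09 on the log2 scale, with the cortex lower in 9 of 12 rats, and -0.070 to -0.20 with miR-378a-3p, let-7b-3p or miR-3594-3p left out. Without miR-330-5p it was 0.09. All references carry equal weight in a geometric mean, and miR-3594-3p brought 92.2% of its counting variance in cortex and 94.9% in thalamus. That counting error was the smaller part of the spread, with a log2 SD of 0.11 in cortex and 0.12 in thalamus. The SD of the geometric mean within groups was 0.28 and 0.29, and without miR-3594-3p it was 0.26 and 0.35. These SDs used TMM factors over the 24 libraries, unlike the spreads of single references above. With those factors miR-378a-3p alone had 0.30 in cortex and 0.53 in thalamus.

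A last comparison asked what the sequencing results of the study's PCR targets become when the counts are scaled by the references in place of TMM. This rescales reads and is not the PCR measurement, which counted copies and was corrected for RNA input. The targets in cortex include miR-132-5p and miR-212-5p, neuronal miRNAs of one cluster induced by activity, miR-17-5p and miR-20a-5p of the miR-17-92 cluster, miR-375-3p, best known from endocrine cells, and miR-128-3p, a neuron-enriched miRNA. Those in thalamus were miR-146a-5p and miR-155-5p, both known from inflammatory signalling. The study picked them from these libraries, so their counts are not independent evidence. With TMM, 9 of 9 cortical targets tested and 2 of 2 in thalamus passed, where 5.66% and 0.513% of all miRNAs did. miR-34c-3p, the other cortical target, fell under the expression filter. Without the libraries under 1000000 reads, miR-375-3p (adjusted p = 0.0695 in edgeR) and miR-211-5p (adjusted p = 0.117) no longer passed with TMM, and the other 7 in cortex and both in thalamus did. Some calls with TMM were also lost when a rat was left out. When rats were left out singly, over 12 fits, miR-211-5p passed in 4, miR-17-5p in 5, miR-135a-3p in 6, miR-128-3p in 8 and miR-375-3p in 10, while the other 4 cortical targets passed in all 12. In thalamus miR-146a-5p passed in 8 of 12 and miR-155-5p in 9 of 12.

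With the 4 references as the scale, 1 of 9 passed in cortex, where 0.27% of all miRNAs did (1 of 371), and 0 of 2 in thalamus, where 0% did (0 of 390, with 17 at an unadjusted p under 0.05). The one that passed was miR-375-3p, at a log2 difference of 1.80 (SE 0.38, adjusted p = 0.0333 in edgeR) after 1.78 (SE 0.39, adjusted p = 0.0231) with TMM. Log2 differences of the 9 cortical targets shifted by -0.06 to 0.05 and those of the 2 thalamic targets by -0.11 and -0.04. The SE of a target grew by a median of 1.37-fold in cortex and 1.17-fold in thalamus. The median SE itself went from 0.17 to 0.26 in cortex and from 0.23 to 0.27 in thalamus. miR-132-5p went from -0.80 (SE 0.12, adjusted p = 0.00404) to -0.81 (SE 0.23, adjusted p = 0.122). miR-146a-5p went from 1.04 (SE 0.20, adjusted p = 0.0207) to 1.01 (SE 0.23, adjusted p = 0.107), and miR-155-5p from 1.45 to 1.34 (adjusted p = 0.107).

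With miR-378a-3p alone as the scale, 0 of 9 cortical and 0 of 2 thalamic targets passed in edgeR, as did 0 of 371 and 0 of 390 of all miRNAs tested. At an unadjusted p under 0.05 there were 41 and 8 miRNAs. miR-146a-5p was then at 0.84 (SE 0.29, adjusted p = 0.935) and miR-155-5p at 1.20 (SE 0.32, adjusted p = 0.901). Those p values are adjusted over all miRNAs tested, whereas the study tested its PCR targets singly. A missed threshold here therefore does not mean that a difference was gone. With miR-378a-3p alone the log2 differences of the 9 cortical targets shifted from those with TMM by -0.007 to 0.12. Those of the 2 thalamic targets shifted by -0.25 and -0.20. The study's PCR with the 4 references found both miR-146a-5p and miR-155-5p raised in thalamus. In cortex that PCR found miR-375-3p and miR-211-5p raised and no significant change of the study's other cortical targets. Its assay with miR-378a-3p alone found miR-146a raised when 3' end variants were included, and a primer assay of the canonical form alone showed no significant rise. Leaving 1 reference out of the 4 gave 1 cortical target without miR-378a-3p, let-7b-3p or miR-330-5p, and 0 without miR-3594-3p. It gave 0 thalamic targets in each case. The cortical target was miR-375-3p, at an adjusted p of 0.0208 to 0.0306 in edgeR, and at 0.0611 without miR-3594-3p, so the calls differed near the threshold. The share of all miRNAs that passed was not counted with these scales. The median shift of the log2 difference in cortex stayed between -0.01 and 0.00 in these 4 settings.

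**Figure D5:**
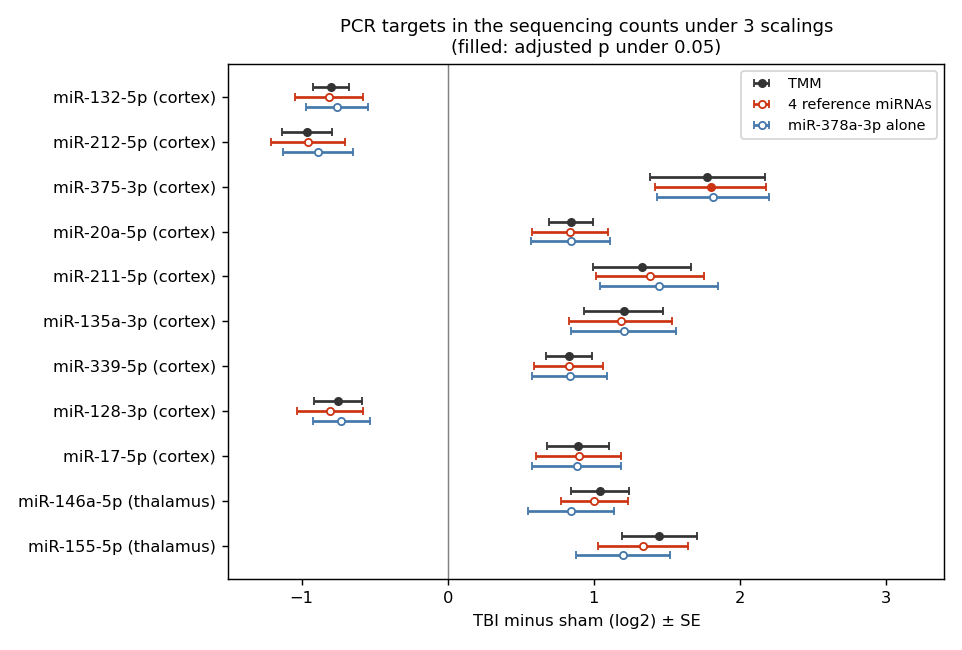
Log2 difference, TBI minus sham, with SE (bars) for the 9 cortical and 2 thalamic PCR targets in the sequencing counts, scaled by TMM, by the 4 reference miRNAs or by miR-378a-3p alone, with filled points for an adjusted p under 0.05. The cortical points of a target lie close together and their bars are wider with either reference scale except for miR-375-3p, the thalamic points are lower with miR-378a-3p alone, and only miR-375-3p keeps a filled point with the 4 references.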

How the data were processed

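Small RNA libraries of 24 samples were made from 300 ng of total RNA, size-selected, sequenced, trimmed, mapped to the rat assembly RGSC3.4 and annotated with miRBase 20, at a service provider for the authors. The aligner is not given in the sources used here. The authors deposited raw read counts for each miRNA and library. Their CPM tables of the same libraries were not used. How reads of near-identical miRNAs were divided is not stated. Groups and rat numbers came from the sample titles, and libraries of a group differed by more than sampling noise.

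Counts of miRNAs were tested with edgeR 4.0.16 in R 4.3.3 (filterByExpr, TMM, quasi-likelihood test, Benjamini-Hochberg over all miRNAs tested, threshold 0.05), per region for injury and over 24 libraries in 4 groups for region and interaction. The SE is the absolute log2 difference divided by the square root of F. DESeq2 1.42.0, other scalings, filters and samples were alternatives. The scripts were tested on simulated data. Values on the log scale used a prior count of 0.5. The rat pairs both regions: deviations from group means correlated at a median of 0.33 between the libraries of a rat (-0.13 to 0.62, 12 rats). Named in the text were the references, their other arms, the study's PCR targets, 10 common normalizers and the 2 miRNAs most like each reference. The references and these lists were chosen with earlier results of these data known. Sequences and gene names came from RefSeq (GRCr8), and no coordinates were moved between assemblies.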

Additional observations from a re-analysis of the deposited data

Results flagged for a closer look

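Of 24 sets of 6 libraries examined (the 4 references, their geometric mean and the number of miRNA reads, in 4 groups), 2 held a library whose distance to its nearest neighbour was over 0.625 of the whole range of the group. Chance alone gives about 1 in 20, or 1.2 of 24. let-7b-3p in the thalamus of TBI rat 56 was at 258 CPM, and the next library of the group was at 145 CPM. The geometric mean of the 4 references in the thalamus of sham rat 55 was at 344 CPM, and the next was at 228 CPM. Both libraries were the shallowest of their group, at 538194 and 523298 miRNA reads, and the part of depth was not tested.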

How the results depend on the processing

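The injury differences of the 4 references were near 0, and 7 of the 8 turned sign under at least 1 setting other than leaving out single rats (miR-378a-3p in thalamus did not), with no reference passing the threshold for injury. In cortex, log2 differences turned to -0.094 (miR-3594-3p), -0.076 (miR-378a-3p), -0.054 (let-7b-3p) and -0.029 (miR-330-5p) with tRNA features in the fit. Without the libraries under 1000000 reads they turned to -0.15 (let-7b-3p), -0.016 (miR-378a-3p) and -0.093 (miR-330-5p). They turned to -0.023 (miR-378a-3p) and -0.011 (miR-3594-3p) in the fit of 24 libraries, to -0.038 (miR-378a-3p) with the 4 references as the scale and to -0.024 (miR-3594-3p) with miR-378a-3p alone. In thalamus they turned to -0.061 (miR-330-5p) and -0.051 (miR-3594-3p) with the 4 references. With miR-378a-3p alone they turned to -0.067 (let-7b-3p), -0.11 (miR-330-5p) and -0.18 (miR-3594-3p), and with library size only to -0.0019 (miR-330-5p). Scaling by the 4 references holds their own mean difference near 0 by construction, so in every comparison some turns of sign under it are built in. Between regions, library size only gave -0.46 for let-7b-3p (now past the threshold), -0.14 for miR-378a-3p and -0.061 for miR-3594-3p, and miR-378a-3p alone gave -0.0022 for miR-3594-3p. The interaction turned to 0.19 (let-7b-3p), 0.14 (miR-378a-3p) and 0.22 (miR-3594-3p) with library size only, to 0.12 (let-7b-3p) and 0.14 (miR-3594-3p) with miR-378a-3p alone, to 0.064 (miR-3594-3p) with the 4 references, to -0.0065 (miR-330-5p) with RLE factors, to -0.0085 (miR-330-5p) with DESeq2, and to -0.022 (miR-330-5p) and 0.063 (miR-3594-3p) without the shallow libraries. With the rat as a replicate block, the interaction of miR-330-5p turned to -0.0097, the regional count was 196 in place of 164 (160 shared), and no call of a reference changed.

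Over all miRNAs, calls in cortex were 21, and 39 with library size only (which moved the median log2 difference from 0.05 to 0.25), 41 with DESeq2, 5 in the fit of 24 libraries, 1 with the 4 references and 0 with miR-378a-3p alone (41 unadjusted). In thalamus they were 2, and 1 at a mean count of at least 50, 5 in the fit of 24 libraries, and 0 with either reference scale. Scaling by miR-378a-3p alone moved the median log2 difference in thalamus from -0.03 to -0.19 and between regions to -0.23, with 35 miRNAs higher and 94 lower in cortex. The 4 references gave 81 and 56. The cause of these moves was not tested.

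Leaving out each rat in turn gave 4 (without sham rat 38) to 30 calls (without sham rat 55) in cortex, with at most 12 without sham rats 26, 32, 38 or 50 or TBI rats 24, 45 or 52, and 0 (without sham rats 26, 32 or 34) or 1 (without sham rat 38) to 2 in thalamus, and 146 to 173 between regions. Log2 differences then ran from -0.14 to 0.20 (miR-3594-3p), -0.095 to 0.11 (miR-378a-3p), -0.25 to 0.11 (let-7b-3p) and -0.047 to 0.15 (miR-330-5p) in cortex, and from -0.14 to 0.21, -0.043 to 0.42, -0.15 to 0.39 and 0.021 to 0.13 in thalamus, in the same order. Between regions miR-378a-3p ran from -0.035 to 0.29. The interaction ran, in that order again, from -0.23 to 0.14, -0.35 to 0.072, -0.21 to 0.12 and -0.16 to 0.10. Depth limits miR-3594-3p most, since a count of 0 in the shallowest library would allow up to 6.71 CPM (3 reads), about its level.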
